A study of Homo sapiens with 2 samples.

Results

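The HOXB cluster is 1 of the 4 human HOX clusters and holds 10 genes on chromosome 17, HOXB1 to HOXB9 and HOXB13. It was examined through every accessible-chromatin peak from 50 kb before to 50 kb after the span of these genes (chr17:48478526-48778750, GRCh38, 300.2 kb), which gave 16 of 58730 peaks in one cell line and 27 of 84951 in the other. The peaks come from ATAC-seq, in which a transposase cuts open chromatin and leaves sequencing adapters at the cuts, with 50000 cells per reaction and a transposase the submitters purified themselves. J76 is labelled an acute T-lymphoblastic leukemia line and is known as a Jurkat subline without T cell receptor chains; the other line, labelled T293 and called 293T here, derives from human embryonic kidney and carries the SV40 large T antigen. Both lines were taken in logarithmic growth, and the labels name no treatment. With a single library for J76 and for 293T, differences are described without a replicate check or a p-value. The depth of sequencing is unknown because the lists hold no read counts, so the lack of a peak is not a measurement of closed chromatin. The gene table used gives gene spans but no exons, so sites are placed by gene and not as exonic or intronic.

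HOX genes encode homeodomain transcription factors that give cells their position along the body axis. Their order along the chromosome follows the order of their expression domains, so that HOXB1 and HOXB2 act in the hindbrain and the higher-numbered genes act further back, with HOXB13 in the hindgut and prostate. The genes of this cluster are all transcribed towards lower coordinates, and Polycomb complexes keep the cluster silent where it is not used. In blood, HOXB4 is known for its action on stem cell self-renewal, while HOXB6 and HOXB7 are known in kidney development. The cluster also holds microRNA genes and non-coding RNA genes, some of the latter antisense to the HOXB genes.

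Among the sequences of the cluster, 3 upstream regions are shown because they lie where the lines had no peak at all or a peak in 293T only. They are credited to RefSeq (GRCh38.p14), whose promoter table matched 1 of the 10 members, HOXB1, and 11 of 20 neighbouring genes. Letters run 5′ to 3′ on the strand of the gene, and capitals mark CpG dinucleotides, the sites of DNA methylation that are dense at many HOX promoters. The HOXB1 entry gives the 250 bases before its start and lies on the minus strand within chr17:48530962-48531261. The entries for HOXB-AS2 (chr17:48555907-48556206, plus strand) and for the second of 2 starts of LINC02086 (chr17:48646509-48646808, plus strand) give 250 bases before and 50 after the start of these non-coding RNAs.
HOXB1: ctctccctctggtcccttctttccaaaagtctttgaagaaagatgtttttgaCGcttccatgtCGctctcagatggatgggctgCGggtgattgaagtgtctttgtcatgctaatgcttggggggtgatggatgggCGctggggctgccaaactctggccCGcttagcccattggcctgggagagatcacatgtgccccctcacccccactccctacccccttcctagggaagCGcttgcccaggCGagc
HOXB-AS2: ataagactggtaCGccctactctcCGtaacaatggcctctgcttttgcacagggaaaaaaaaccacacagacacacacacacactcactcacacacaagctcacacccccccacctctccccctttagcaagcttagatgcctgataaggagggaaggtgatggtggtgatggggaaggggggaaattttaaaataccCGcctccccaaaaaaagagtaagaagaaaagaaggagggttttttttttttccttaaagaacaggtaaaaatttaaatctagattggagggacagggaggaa
LINC02086: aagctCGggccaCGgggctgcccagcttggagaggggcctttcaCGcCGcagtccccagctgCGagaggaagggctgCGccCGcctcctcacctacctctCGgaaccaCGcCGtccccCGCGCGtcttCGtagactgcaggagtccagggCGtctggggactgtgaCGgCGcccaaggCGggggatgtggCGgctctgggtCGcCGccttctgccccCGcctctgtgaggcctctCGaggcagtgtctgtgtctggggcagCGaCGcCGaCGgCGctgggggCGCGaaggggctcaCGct

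The 300 bases of the LINC02086 start lay wholly inside a 293T-only peak and held 31 CpG dinucleotides, at least as many as 81.1% of 34796 promoter sequences of the same length. The HOXB-AS2 sequence shared 106 bases with a weaker 293T-only peak and held 3 CpG dinucleotides (percentile 24.6). The 250 bases shown for HOXB1 held 7, and its whole window of 300 bases held 11 (percentile 47.0). That window was 11802 bp from the nearest J76 peak and 11963 bp from the nearest 293T peak. Each was searched on both strands, over all 300 bases, for 12 motifs. They were the CCAAT box, the GC box written GGGCGG, the TATA box written TATAAA, the cofactor motif of MEIS proteins written TGACAG, the joint motif of PBX and HOX proteins written TGATTNAT, the motif of CDX proteins written TTTATNG and the core of the CTCF motif written AGGGGGC. The others were the motif of GATA factors written AGATAA, that of ETS factors written CCGGAA, that of RUNX factors written TGTGGT, and direct repeats of the retinoid half-site AGGTCA with 5 or with 2 bases between. HOXB1 held CCAAT at position 171 and AGGGGGC at 195, both on the opposite strand, counted from the 5′ end of the window. HOXB-AS2 held TGTGGT at 62 and CCAAT at 281, both on the opposite strand. LINC02086 held none of them, which says only that these letters are not in this window. CCAAT occurs in 34.6% of the promoter sequences, AGGGGGC in 14.3% and TGTGGT in 13.1%, so these matches are common, and none of them overlap each other.

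Both libraries carried marks of their labelled lines. Over all protein-coding genes, 3.94% had a peak within 1 kb of a gene end in J76 only and 9.09% in 293T only. A further 60.7% had one in both lines and 26.3% in neither. Of 8 T cell markers, 7 had a peak within 1 kb of a gene end in J76 only and 1, CD3D, in both lines. Of 9 epithelial and kidney-line markers, 7 had one in 293T only (KRT8 and KRT18 through the same peak), 1 (PAX2) in J76 only and 1 (CDH2) in both. Of 4 B cell markers none had a peak in either line; 1 of 4 myeloid markers (CSF1R) and 1 of 4 fibroblast markers (DCN) had one in 293T only, while CD68 (myeloid) and COL1A1 and COL1A2 (fibroblast) had one in both.

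The HOXB window held more peaks in 293T than in J76, and only in 293T was it denser than each of the neighbouring regions compared. The window held 16 J76 peaks that covered 7425 bp (2.47% of it) and 27 293T peaks that covered 15323 bp (5.1%). This is 5.33 J76 peaks per 100 kb, against 5.4 in the 500 kb above the window, 3.4 in the 500 kb below it, 4.34 over the 10 Mb from 40 to 50 Mb and 2.7 over chromosome 17. In 293T it is 8.99 per 100 kb, against 3.6, 3, 3.88 and 2.66 in the same regions. The ratio of 293T to J76 peaks was 1.69 in the window, against 0.98 on chromosome 17, 0.89 in those 10 Mb, 0.88 and 0.67 in the 500 kb below and above the window, and 1.45 over all peaks. The excess of 293T rested on peaks of lower −log10 q: at a −log10 q of 10 or more, 12 J76 and 13 293T peaks were left. The lead of 293T narrowed over the whole lists too, from 58730 and 84951 peaks to 30806 in J76 and 38882 in 293T. With the same number of peaks taken from each list, 22 of the 293T peaks in the window were left beside the 16 of J76.

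**Figure D1:**
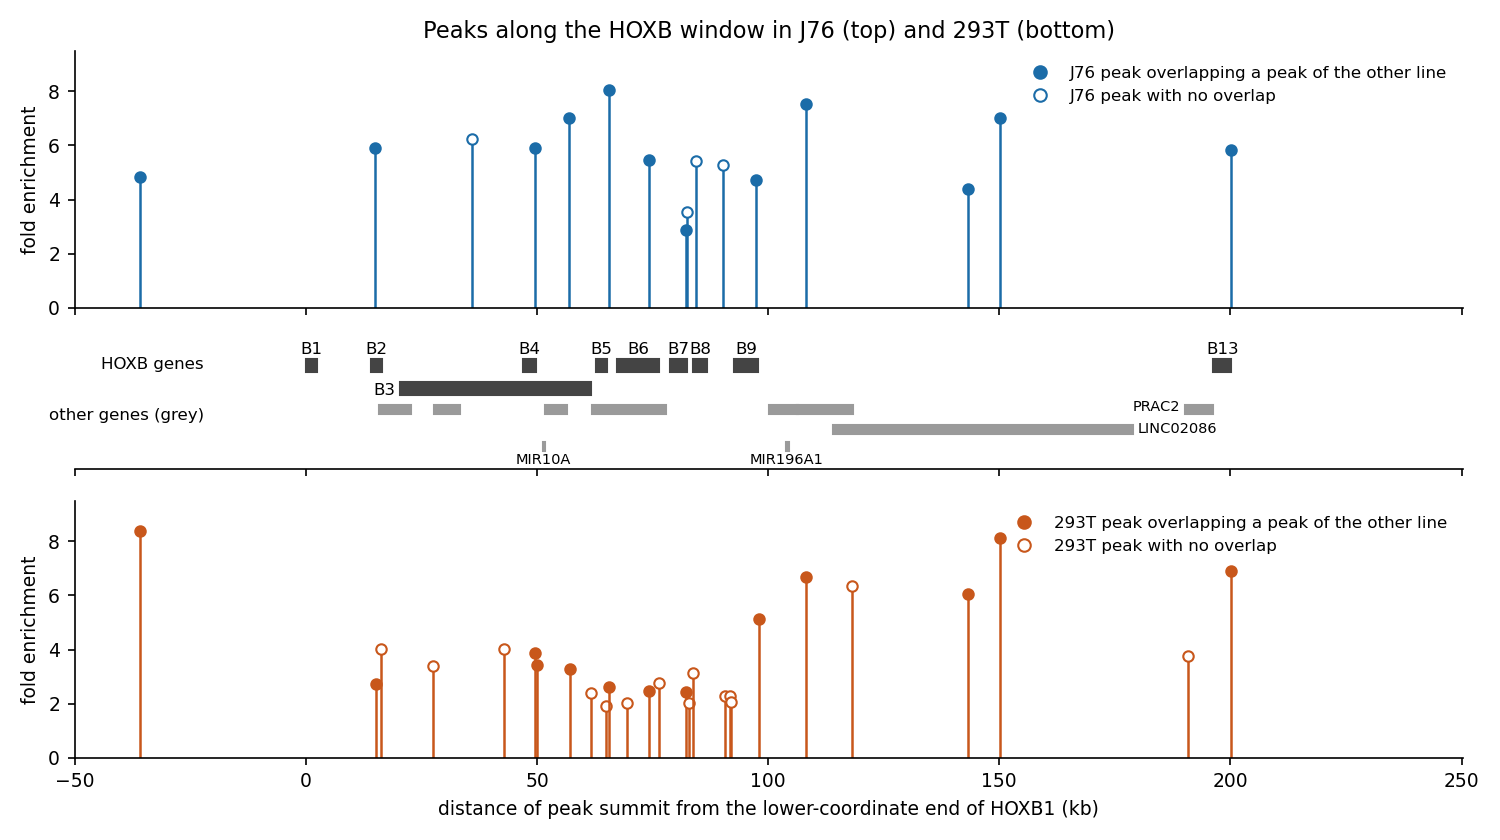
Each stem is a peak at its summit, with the authors' fold enrichment on the y axis (linear) and distance from the lower-coordinate end of HOXB1 in kb on the x axis, for J76 (top) and 293T (bottom), 1 library each; filled circles overlap a peak of the other line, open circles do not, dark boxes are the HOXB genes and grey boxes other genes. Peaks crowd between HOXB2 and HOXB9 in both lines, and the 293T folds there lie between 1.91 and 5.14.

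Most J76 peaks had a partner in 293T. An overlap was found for 12 of the 16 in J76, leaving 4 without one, a line-only share of 25% (95% exact binomial interval 7.27 to 52.4, counting error only), beside 47.7% of all J76 peaks. In 293T an overlap was found for 13 of the 27, leaving 14 without one, a share of 51.9% (31.9 to 71.3), beside 64.0% of all 293T peaks. Both intervals include the share of the whole list, so neither share stands apart from its list. Under a reciprocal overlap of 50% the shares were 56.2% in J76 and 74.1% in 293T. This rule is stricter and no share over all peaks was computed by it, so 47.7% and 64.0% are not its background. With 100 kb flanks the J76 share was 41.7%. At a −log10 q of 10 or more the J76 share was also 41.7%, there beside 35.6% of all such J76 peaks, so the side of the background on which J76 fell changed with this setting. The summits of the 12 overlapping J76 peaks lay a median of 27.5 bp (4 to 662) from the nearest 293T summit, and 10 of them within 60 bp. The J76-only peaks often had a 293T peak close by: 3 of the 4 ended within 300 bp of one, at 132, 212 and 276 bp. Of the 14 293T-only peaks, 4 were as close to a J76 peak, and the others were up to 9348 bp away.

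Of the 10 members, 7 had a peak within 1 kb of a gene end in both lines, 2 had one in 293T only, none in J76 only, and 1 lacked one in either. Over 19974 protein-coding genes these shares were 60.7%, 9.09%, 3.94% and 26.3%. The count of 7 of 10 is near that background. Several members stand so close that 1 peak can serve 2 genes, and HOXB3, HOXB5, HOXB6, HOXB7, HOXB8 and HOXB13 each have another protein-coding gene end within 2 kb. At a −log10 q of 10 or more HOXB3 and HOXB6 had no gene-end peak in either line and HOXB7 had one in 293T only. When only the higher-coordinate end, where these genes start, was used, 5 members had a peak in both lines, 3 in 293T only (HOXB2, HOXB3 and HOXB6) and 2 in neither (HOXB1 and HOXB8).

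**Figure D2:**
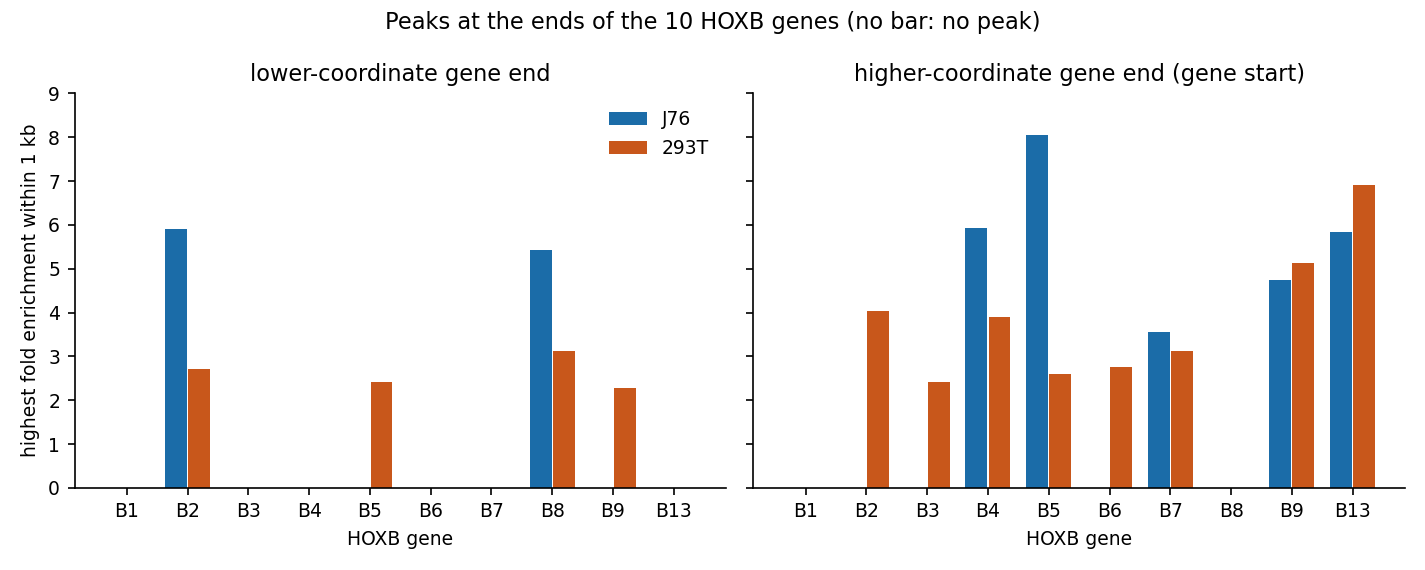
Bars give the highest fold enrichment of a peak within 1 kb of the lower-coordinate end (left) and of the higher-coordinate end (right) of each HOXB gene, in J76 (blue) and 293T (orange), 1 library each; no bar means no peak. HOXB1 has no bar, and at the higher-coordinate end HOXB2, HOXB3 and HOXB6 have a 293T bar only.

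Among the anterior members, HOXB1 (chr17:48528526-48531011), which patterns hindbrain segments and the facial nerve, had no peak at either end in either line. Around it lay the longest stretch without peaks in the window, 50.7 kb between summits in J76 and 51.0 kb in 293T, reaching from the flank below the gene up to HOXB2. In J76 the stretch before HOXB13 was nearly as long, between summits 150.08 and 200.2 kb from the lower end of HOXB1. HOXB2 (chr17:48542655-48545109), which acts beside HOXB1 in the hindbrain, had a J76 peak inside the gene (chr17:48543064-48543836, 773 bp, fold 5.91, −log10 q 14.5). In 293T it had 2 peaks, one that overlaps the J76 peak (chr17:48543225-48544025, fold 2.72, −log10 q 5.6) and one at its start that J76 lacked (chr17:48544459-48544918, fold 4.03, −log10 q 15.4). The latter also lies inside HOXB-AS1, a non-coding RNA on the plus strand, and 58 bp past the end of its RefSeq promoter window.

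HOXB3 (chr17:48548870-48590241), a broadly used member whose annotated transcripts reach across HOXB4, held both shared and line-only peaks. The shared ones, at HOXB4 and beside HOXBLINC, are given in the next paragraph, and the line-only ones lay at different places in the 2 lines. At its higher end there was a 293T-only peak of 200 bp (chr17:48590114-48590313, fold 2.41, −log10 q 8.3), 12 bp from the gene end by its summit, and no J76 peak. Inside the gene J76 alone had a peak of fold 6.25 (chr17:48564053-48564757, −log10 q 18.7), 6327 bp from the nearest 293T peak. Also inside it, 293T alone had peaks of fold 3.41 at HOXB-AS2 (chr17:48555587-48556012, the sequence shown above) and 4.01 (chr17:48571085-48571718). These 3 sites had no peak of the other line within 6 kb.

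HOXB4 (chr17:48575507-48578350), the blood stem cell regulator, had peaks at its start in both lines. The J76 peak was 956 bp wide (chr17:48577754-48578709, fold 5.92, −log10 q 16.5) and overlapped 2 peaks of 293T, one inside the gene (chr17:48577420-48578262, fold 3.89, −log10 q 13.7) and one just before it (chr17:48578365-48578951, fold 3.44, −log10 q 10.2). The J76 summit was 11 bp from that of the former. Between HOXB4 and HOXB5, inside the span of HOXB3 and beside the non-coding RNA gene HOXBLINC, both lines had a peak with summits 55 bp apart (J76 chr17:48585186-48585649, fold 7.02; 293T chr17:48585397-48586109, fold 3.29).

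The central members HOXB5 to HOXB8 act in the trunk. With HOXB9 and 1 kb past it they form a block of 36.1 kb, which had 7 J76 peaks, or 19.4 per 100 kb, and 12 293T peaks, or 33.2 per 100 kb. The peak of highest fold of the J76 window lay just before the start of HOXB5, a gene at chr17:48591257-48593779 (peak chr17:48593896-48594230, fold 8.06, −log10 q 28.1), and its fold ranked above 82.6% of J76 peaks. The 293T peak at this site ended at the same base (chr17:48593877-48594230), with a summit 33 bp away, and its fold of 2.60 ranked at percentile 2.97 of the 293T list while its −log10 q of 12.8 ranked at percentile 61.5. A second 293T peak lay inside HOXB5 (chr17:48593399-48593612, fold 1.91, −log10 q 4.1) and had the lowest fold of the window.

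HOXB6 (chr17:48595751-48604986) had its gene-end peak in 293T only (chr17:48604865-48605139, fold 2.76, −log10 q 8.8), with its summit 4 bp from the gene end. Inside the gene both lines had a peak (J76 chr17:48602599-48602898, fold 5.46; 293T chr17:48602709-48602932, fold 2.46), and 293T had another (chr17:48597936-48598398, fold 2.04). The J76 peak inside the gene was 2231 bp from its higher end, which is why HOXB6 counted as having peaks in both lines with windows of 2.5 kb. At HOXB7 (chr17:48607232-48611017) a shared pair (J76 chr17:48610575-48610830, fold 2.87; 293T chr17:48610404-48610827, fold 2.42) was followed by a J76-only peak on the gene end (chr17:48610994-48611198, fold 3.55). The J76 peak of that pair had the lowest fold of the J76 window.

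Between HOXB7 and HOXB8 the lines had peaks that alternated without touching. After the J76 peak on the HOXB7 end came 293T-only peaks of fold 2.04 (chr17:48611331-48611530) and 3.12 (chr17:48611699-48612388, −log10 q 15.1), and then a J76-only peak of fold 5.43 inside HOXB8 (chr17:48612601-48613278, −log10 q 21.5). The gaps were 132 bp on one side and 212 bp on the other. HOXB8 (chr17:48612346-48615292), known for its role in myeloid progenitors, was therefore counted as having gene-end peaks in both lines although these do not overlap, and its start had a peak in neither. Between HOXB8 and HOXB9 a J76-only peak (chr17:48618600-48618872, fold 5.29) was followed by 3 293T-only peaks of fold 2.06 to 2.30.

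HOXB9 (chr17:48621156-48626358) had a wide peak at its start in both lines, 1091 bp in J76 (chr17:48625800-48626890, fold 4.74, −log10 q 13.03) and 1143 bp in 293T (chr17:48625771-48626913, fold 5.14, −log10 q 32.8). Their outlines nearly coincide, but the summits were 662 bp apart, the largest distance among the overlapping peaks. The 293T peak had the highest −log10 q of the window in either line. HOXB13 (chr17:48724763-48728750), the posterior member, stands apart from the others and had a peak at its start in both lines, 315 bp wide in J76 (chr17:48728557-48728871, fold 5.83, −log10 q 15.5) and 1098 bp in 293T (chr17:48728161-48729258, fold 6.92, −log10 q 26.6). The summits were 35 bp apart.

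The interval of 97.4 kb between HOXB9 and HOXB13 held no HOX gene but 3 pairs of peaks whose summits nearly coincided. They lay at chr17:48636507-48636808, chr17:48671694-48671932 and chr17:48678462-48678794 in J76 (folds 7.53, 4.39 and 7.02), with summits 6, 4 and 10 bp from those of 293T (folds 6.68, 6.05 and 8.14). The last 2 are inside LINC02086, more than 45 kb from the nearest HOXB gene end. The 293T-only peak at LINC02086 was the widest of the window at 1511 bp (chr17:48646157-48647667, fold 6.34, −log10 q 24.6), and the nearest J76 peak was 9348 bp away. A weak 293T-only peak lay in PRAC2, a gene known in prostate and distal colon (chr17:48718769-48719597, fold 3.76, −log10 q 4.8). The flanks were nearly empty: below HOXB1 both lines shared 1 site (J76 chr17:48492585-48492784, fold 4.83; 293T chr17:48492531-48493220, fold 8.40), and above HOXB13 neither line had a further peak.

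The microRNA hairpins carried no peak. MIR10A, between HOXB4 and HOXB5, was 1128 bp from the nearest J76 peak and 886 bp from the nearest 293T peak, and MIR196A1, above HOXB9, was 3947 and 3943 bp away. Their mature RNAs are shown, with the seed (bases 2 to 8) in capitals, because both are known to target HOX transcripts and their seeds differ.
hsa-miR-10a-5p: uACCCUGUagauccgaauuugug
hsa-miR-196a-5p: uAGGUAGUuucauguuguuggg

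The 293T peaks from HOXB1 to HOXB9 had low folds for their −log10 q. The fold is the authors' height of a peak at its summit over the estimated background, and each was set against the peaks of the same list whose −log10 q was within 10% of its own, a comparison chosen after the values were seen. Of the 20 293T peaks from HOXB1 to HOXB9, 17 were in the lowest 10% by this measure, beside 9.83% of all 293T peaks. Of these 20, 12 lie within 36.1 kb and all come from 1 library, so the peaks are not independent observations. Their median percentile was 2.56 (0.435 to 25.2) and their median fold was 0.62 times the median of such peaks. None of the other 7 293T peaks of the window was in the lowest 10% (median percentile 90.1, 31.3 to 96.8). In J76, 2 of 11 peaks from HOXB1 to HOXB9 were in the lowest 10%, beside 9.76% of all J76 peaks, and the median percentile was 44.4. These 2 were the pair at the end of HOXB7. The heights and background levels behind the folds were not analysed here.

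**Figure D3:**
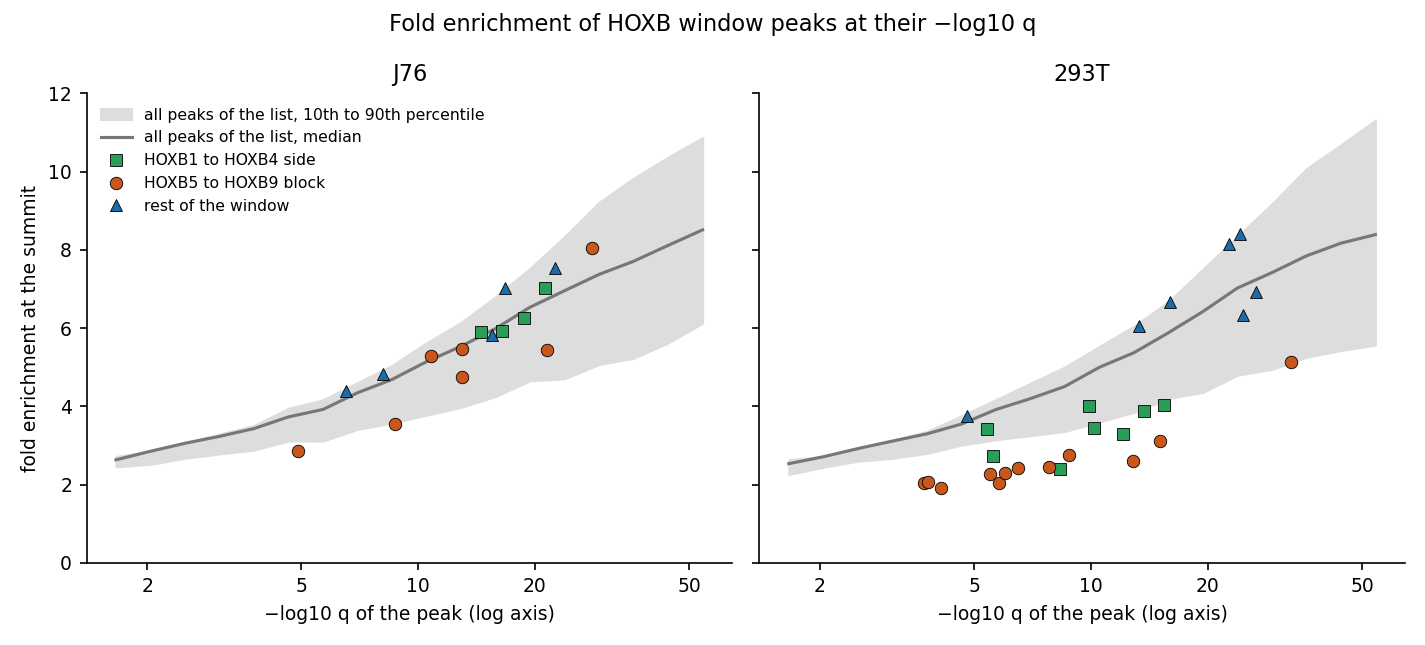
Each point is a peak of the HOXB window, with its −log10 q on a log x axis and its fold enrichment on a linear y axis, for J76 (left) and 293T (right), 1 library each; the grey line and band are the median and the 10th to 90th percentiles of all peaks of the same list. In 293T, 17 of the 20 peaks between HOXB1 and HOXB9 (squares and circles) are in the lowest 10% at their −log10 q, whereas the rest of the window (triangles) is not.

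The other HOX clusters showed the same low folds in 293T, so this was not particular to HOXB. In windows set by the same rule, 22 of 25 293T peaks at HOXA, 24 of 33 at HOXC and 9 of 16 at HOXD were in the lowest 10% at their −log10 q, against 17 of 27 at HOXB. In J76 it was 2 of 12, 0 of 9 and 4 of 11, against 2 of 16 at HOXB. The 293T-only share was 51.9% (31.9 to 71.3) at HOXB, 64% (42.5 to 82) at HOXA, 81.8% (64.5 to 93) at HOXC and 56.2% (29.9 to 80.2) at HOXD. The HOXB interval held the shares of HOXA and HOXD but not the 81.8% of HOXC, and the HOXC interval did not hold the HOXB share. All of these intervals overlap that of HOXB, but such overlap does not show that shares are alike. The ratio of 293T to J76 peaks was 1.69 at HOXB, 2.08 at HOXA, 3.67 at HOXC and 1.45 at HOXD.

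**Figure D4:**
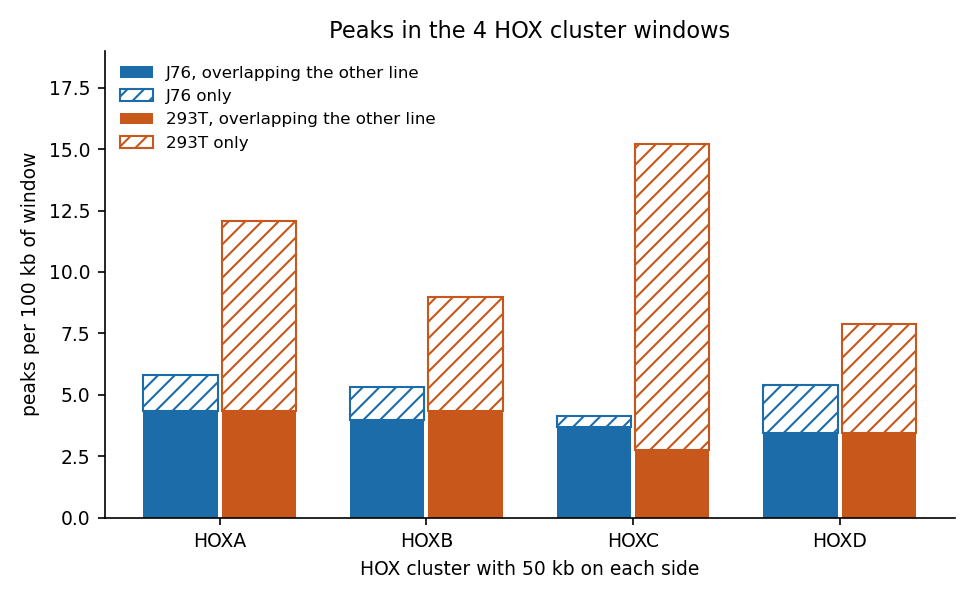
Bars give peaks per 100 kb of window (linear axis from 0) in the 4 HOX cluster windows, each with 50 kb on both sides, for J76 (blue) and 293T (orange), 1 library each; solid parts overlap a peak of the other line and hatched parts do not. At HOXB the bars reach 5.33 in J76 and 8.99 in 293T.

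By gene, HOXB had 7 of 10 members with gene-end peaks in both lines, against 4 of 11 at HOXA, 6 of 9 at HOXC and 2 of 9 at HOXD, and no HOX gene had one in J76 only. Of 21 paralogs of the HOXB genes in the other clusters, 9 had the same call as their HOXB counterpart, and 6 of the 10 members had at least 1 such paralog. No share for HOX genes of different groups was computed, so these counts do not show that paralogs agree. The matches of HOXB4 with HOXC4 and of HOXB5 with HOXC5 rest on the same HOXC peak. All 4 genes of group 13 had peaks in both lines. In group 9, HOXB9 had peaks in both, HOXA9 and HOXC9 in 293T only, and HOXD9 in neither. The other HOX genes with peaks in both lines and the highest fold were HOXC4, HOXC5 and HOXC6, which share a peak (11.7 in J76 and 6.06 in 293T).

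Genes for partners and regulators of HOX proteins are set beside the shares over all protein-coding genes, 60.7% with peaks in both lines, 9.09% in 293T alone, 3.94% in J76 alone and 26.3% without. Of 9 genes of TALE homeodomain cofactors, which bind DNA together with HOX proteins, 8 had gene-end peaks in both, among them PBX4 (11.2 in J76 and 12.5 in 293T), and MEIS3 had none. All 8 architectural factor genes had them in both, led by WAPL, which releases cohesin (11.1 and 8.87), and SMC1A of the cohesin ring (10.3 and 8.15). Of 22 Polycomb and Trithorax genes, 20 had them in both, led by MEN1 (8.87 and 13.6) and SUZ12 of Polycomb complex PRC2 (10.6 and 10.6), 1 in 293T only (KDM2B, 3.07) and 1 in neither (PCGF2). The 14 retinoid and caudal genes, which act upstream of HOX genes in the embryo, were split: 4 had peaks in both lines, 4 in 293T alone, 1 in J76 alone, and 5 had none. Those in 293T only included ALDH1A3 (7.18) and ALDH1A2 (5.55), which make retinoic acid, and its receptor gene RARB (6.88), while RARA, the member in J76 only, had a fold of 3.74 and was named after its value was seen. CYP26A1, which degrades retinoic acid (8.40 and 5.65), and RXRA (6.61 and 4.88) had peaks in both. RARB, ALDH1A3, MEN1, SUZ12, PCGF2 and SMC1A have another gene end within 2 kb.

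Most of the 20 neighbouring genes in the window are non-coding genes or pseudogenes, and no share over all genes of these kinds was computed. Of the 20, 3 had a gene-end peak in both lines, 5 had one in 293T only, none in J76 only, and 12 had none. The 3 were HOXB-AS1 and HOXBLINC, through peaks described above, and TTLL6, a tubulin-modifying enzyme gene, through its far end, which lies outside the window. The 5 were HOXB-AS2, MIR10A, HOXB-AS3, LINC03057 and PRAC2. LINC03057 was called through the 293T-only peak of fold 6.34 at the second LINC02086 start, whose summit was 126 bp from the LINC03057 end. LINC02086 was among the 12 without a gene-end peak, because that start lies inside its span and not at one of its ends. MIR10A was called through the 293T peak just before HOXB4 (fold 3.44), which overlaps a J76 peak. That J76 peak was 1128 bp from MIR10A, past the limit of 1 kb, so this call does not show a site of 293T alone. HOXB-AS3 was called through the 293T-only peak at the higher end of HOXB3 (fold 2.41).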

How the data were processed

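ATAC-seq peaks of 2 human cell lines, 1 library each, were used as 1 list per library that the authors deposited in narrowPeak layout. The submitters' processing notes name Bowtie2, an aligner, and MACS2, a peak caller. Not given in the sources used here are versions, settings, duplicate removal and any shift of reads to the transposase cut. Per the file layout, the authors' fold enrichment is a linear ratio at the summit, their p-values and q-values are given as −log10 values, and the authors' integer score was not used. Positions and the other columns are as deposited. GRCh38 was inferred from contig names, since no build is stated, and positions count from 1. Depth is unknown.

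Peaks on the autosomes and chromosome X were kept (58730 in J76, 84951 in 293T). Peaks were shared if they overlapped by 1 bp. A gene was called where a peak came within 1 kb of one of its ends in RefSeq GRCh38.p14 (19974 protein-coding genes), since the promoter table gives a strand for 1 member only; the planned readout of starts was replaced on that ground. Intervals are exact binomial (Clopper-Pearson) at 95%. Named genes were all members, neighbours with a peak, and per list up to 3 genes called in 1 line and up to 2 in both, highest fold first. Results for some genes under this rule are not reported here. The members and lists were chosen with earlier results of these data known. Percentiles of fold at a given −log10 q and the margins of the gene blocks (1 kb past HOXB9 and HOXB13) were chosen after the values were seen. The overlap code was tested on simulated data. Python 3.11.15, pandas 2.3.3 and SciPy 1.17.1 were used.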

Additional observations from a re-analysis of the deposited data

How the results depend on the processing

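The values were recomputed with minimum −log10 q values of 5 and 10, with equally long peak lists, with no flank or 100 kb, a reciprocal overlap of 50%, summits within 250 bp and gene-end windows of 500 bp or 2.5 kb; the higher-coordinate gene end was added after seeing the data. Of 57 recomputed values, 50 stayed within 1.5 times the main count or within its interval. This is a weak check, because the intervals are wide, such as 7.27 to 52.4 for the J76 line-only share. The values also include the 293T-only shares of HOXA, HOXC and HOXD, and the count of members called in J76 only, which was 0 in every setting. With the minimum of 10 the window held 13 293T peaks beside 12 in J76, 1 member was called in 293T only (HOXB7) and 3 in neither (HOXB1, HOXB3 and HOXB6). With 2.5 kb, 1 member was in 293T only. At the higher-coordinate end, 2 members were in neither line. Under a reciprocal overlap of 50%, the line-only shares were 56.2% in J76 and 74.1% in 293T. No share over all peaks was computed by this stricter rule. The cause of these changes was not tested. With 100 kb flanks the counts were 24 and 30. HOXB1 was called in neither line under every setting run, but none of these settings could have changed that call. The peaks nearest its promoter window lay 11802 bp (J76) and 11963 bp (293T) away, and gene-end windows reached at most 2.5 kb. With 1 library per line no replicate could be left out. No paired analysis was possible because each line has 1 library. Unknown depth limits every absence of a peak.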
